A study of Mus musculus with 6 samples.

Results

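Oligodendrocyte precursor and differentiation stage markers were followed in cerebral cortex of FAD5x mice and of C57BL/6 mice. The set held 10 genes chosen by symbol: Pdgfra, Cspg4, Lhfpl3, Neu4, Gpr17, Bcas1, Enpp6, Olig1, Olig2 and Sox10. All 10 were found among 47728 genes with counts, and all 10 were among the 17074 genes with enough counts to be tested. The labels describe bulk RNA sequencing of flash frozen cortex from 3 FAD5x and 3 Control samples, the Control mice being wild-type C57BL/6. FAD5x is given as an Alzheimer's model. As background, mice of that kind carry human transgenes with familial Alzheimer's mutations, driven in neurons by Thy1 promoter sequence. Age, sex and whether each library came from a separate animal are not given in the sources used here, so a p-value here reflects library-to-library spread alone, part of which may be technical.

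Oligodendrocyte precursors are glial cells that stay in the adult cortex, divide, and give rise to the oligodendrocytes that wrap axons in myelin. They carry the receptor for platelet-derived growth factor and the proteoglycan NG2, pass through a short committed stage marked by the receptor Gpr17, and then switch on genes of early myelination. The transcription factors Olig1, Olig2 and Sox10 are expressed along the whole lineage. In bulk tissue, fewer cells of a stage and less RNA per cell cannot be told apart.

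Total counts were 17363946 to 24137936 per library. Levels are given in CPM, counts as a share of the library total after scaling by TMM normalisation factors. A log2 fold change compares FAD5x with Control, positive where FAD5x is higher, and carries a standard error (SE). Values of a group follow the order of replicates 1, 2 and 3. The following features of the libraries touch the values below. FAD5x replicate 1 had a summed level of 5 striatal neuron markers of 773 CPM, against 64.4 to 164 CPM in the other 5 libraries. FAD5x replicate 2 had a summed level of 6 cortical neuron markers of 7717 CPM, against 4590 to 5599 CPM in the other libraries. Among these markers, Gad1 and Gad2 were not highest in that library. FAD5x replicates 1 and 2 have related library names. Control replicate 1 had 3 counts of Xist, the transcript of the inactive X chromosome, against 10346 to 22631 in the other libraries. The groups thus differ in their make-up by Xist, and a fit without Control replicate 1 also drops the only library low in it. The part of this difference in the values was not tested.

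Of the 10 markers, 1 rose and 1 fell in FAD5x cortex. Both were listed under the committed and differentiating stage, although mature cells also express Bcas1. Bcas1 rose and Gpr17 fell, each by more than 3-fold, whereas the other 8 did not pass the test. Among all tested genes 1.76% were called higher and 1.39% lower (edgeR quasi-likelihood test, Benjamini-Hochberg adjusted p below 0.05). The FAD5x and Control libraries did not overlap for 2 of the 10 markers, Bcas1 higher and Gpr17 lower, against 27.4% of all tested genes (14.1% higher and 13.2% lower). An unadjusted p below 0.05 was found for 4 of the 10 (Bcas1, Gpr17, Sox10 and Neu4), against 21.3% of all tested genes. Over the 10 markers the log2 fold changes had a median of -0.15, with 4 above 0, and over all tested genes a median of 0.015. FAD5x replicate 1 was the highest FAD5x library for 8 of the 10 markers, and Control replicate 1 was the lowest Control library for 7.

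**Figure D1:**
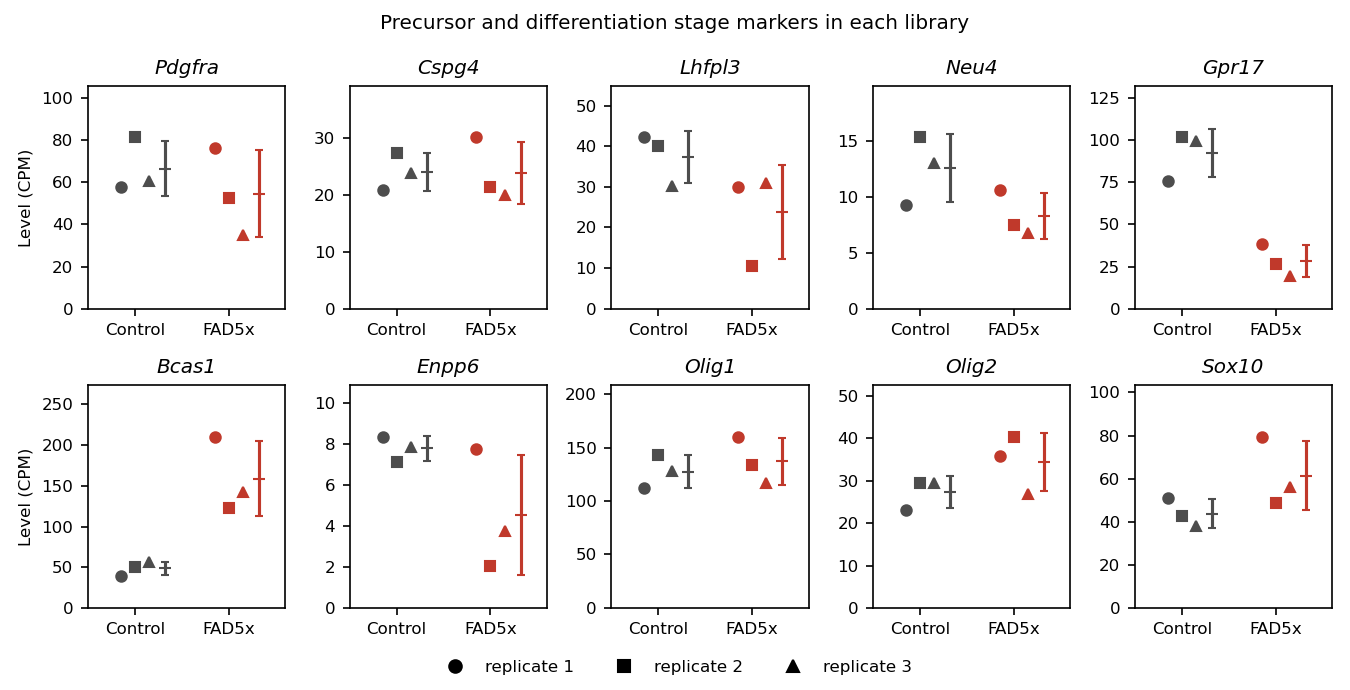
Levels of the 10 markers in CPM on the vertical axis, in panels per gene, for the 3 Control libraries (grey) and the 3 FAD5x libraries (red); symbols give the replicate, and bars the mean and SD. The 2 groups lie apart for Gpr17, with FAD5x lower, and for Bcas1, with FAD5x higher, and overlap for the other 8 markers.

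Gpr17 (ENSMUSG00000052229) encodes a G protein-coupled receptor of committed precursors that is switched off before myelination. It measured 38.5, 26.6, 19.4 CPM (FAD5x) against 76.0, 102, 99.8 CPM (Control). The highest FAD5x library therefore lay below the lowest Control library, and the FAD5x libraries had 41.6%, 28.8% and 21.0% of the Control mean. Gpr17 fell from 92.5 ± 14.3 to 28.2 ± 9.61 CPM (SD, n = 3), or 3.28-fold (log2 -1.71 ± 0.25 SE, edgeR adjusted p = 0.0147). The call ended without Control replicate 2 (adjusted p = 0.0800) or Control replicate 3 (0.0510), with log2 fold changes of -1.64 and -1.65. Without FAD5x replicate 1, the library with striatal markers, the log2 fold change was -2.01 (adjusted p = 0.00836), and without replicate 1 of both groups, a setting added after the data were seen, it was -2.12 (0.0328). Lims2, a gene on the opposite strand, shares 188 of the 5195 exon bases of Gpr17 and had 159 to 254 counts per library, against 372 to 1810 for Gpr17, and no label or note used here says whether counting used strand.

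Bcas1 (ENSMUSG00000013523) encodes a protein of early myelinating oligodendrocytes that mature cells also express. It measured 210.4, 123, 142 CPM (FAD5x) against 39.7, 50.7, 55.8 CPM (Control). Every FAD5x library exceeded every Control library, at 432%, 252% and 292% of the Control mean. The mean of Bcas1 rose 3.25-fold, with 48.7 ± 8.23 CPM in Control and 159 ± 46.0 CPM in FAD5x (SD, n = 3; log2 1.70 ± 0.22 SE, edgeR adjusted p = 0.0104). FAD5x replicate 1 was the highest of the 3. Without it the log2 fold change was 1.44 (edgeR adjusted p = 0.0166). Without replicate 1 of both groups, a setting added after the data were seen, it was 1.32 and the call ended (0.0821). FAD5x replicates 2 and 3 had striatal marker sums of 164 and 81.6 CPM, against 64.4 to 102 CPM in Control. The part of striatal tissue in the Bcas1 values was not tested. The call ended without Control replicate 1 (adjusted p = 0.0510) or Control replicate 2 (0.0701). Its antisense partners Bcas1os1 and Bcas1os2 had at most 37 counts in any library.

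The other two markers of the committed and differentiating stage overlapped between groups. Enpp6, a choline-specific phosphodiesterase of newly forming oligodendrocytes, measured 7.75, 2.03, 3.76 CPM (FAD5x) against 8.37, 7.14, 7.88 CPM (Control). FAD5x replicates 2 and 3 lay below all Control libraries, and FAD5x replicate 1 lay among them. Its log2 fold change was -0.78 ± 0.43 (edgeR adjusted p = 0.342), and -1.43 without FAD5x replicate 1 (0.0804). Neu4, a sialidase of the lineage, measured 10.6, 7.46, 6.79 CPM (FAD5x) against 9.30, 15.3, 13.1 CPM (Control). The 2 groups overlapped only through FAD5x replicate 1 and Control replicate 1, and the log2 fold change was -0.60 ± 0.25 (adjusted p = 0.218).

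The precursor markers did not pass the test in either direction. Pdgfra, the receptor through which platelet-derived growth factor drives precursor division, measured 76.4, 52.3, 35.0 CPM (FAD5x) against 57.6, 81.2, 60.5 CPM (Control). FAD5x replicate 1 lay within the Control range and the other FAD5x libraries below it, with a log2 fold change of -0.28 ± 0.27 (edgeR adjusted p = 0.602). Cspg4, the NG2 proteoglycan that pericytes also carry, measured 30.1, 21.4, 19.9 CPM (FAD5x) against 20.8, 27.3, 23.8 CPM (Control), and its log2 fold change was -0.0099 ± 0.19 (0.984). The sign of that value for Cspg4 changed with the scaling and the libraries used. Lhfpl3, a tetraspan membrane protein enriched in precursors, measured 30.0, 10.4, 31.03 CPM (FAD5x) against 42.2, 39.9, 30.1 CPM (Control). FAD5x replicate 2 was far below the others, and the log2 fold change of -0.65 ± 0.38 (0.373) became -0.29 without it. An opposite-strand gene, A930003O13Rik, shares 567 of its 3213 exon bases and had 12 to 24 counts per library.

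The lineage transcription factors had fold changes above 0 that did not pass the test. Sox10, an SRY-box factor that drives myelin genes, measured 79.5, 48.9, 56.0 CPM (FAD5x) against 50.9, 42.5, 37.8 CPM (Control). Only Control replicate 1 and FAD5x replicate 2 crossed, and the log2 fold change was 0.49 ± 0.20 (edgeR adjusted p = 0.204). Olig2, a basic helix-loop-helix factor needed to specify the lineage, measured 35.8, 40.4, 26.9 CPM (FAD5x) against 23.1, 29.6, 29.4 CPM (Control) (log2 0.33 ± 0.18, adjusted p = 0.338). Olig1, its neighbour and paralog, measured 160.3, 134, 117 CPM (FAD5x) against 113, 143, 128 CPM (Control) (log2 0.10 ± 0.16, adjusted p = 0.754). The groups overlapped for both Olig genes. The sign of the Olig1 value was negative without FAD5x replicate 1 (log2 -0.025).

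**Figure D2:**
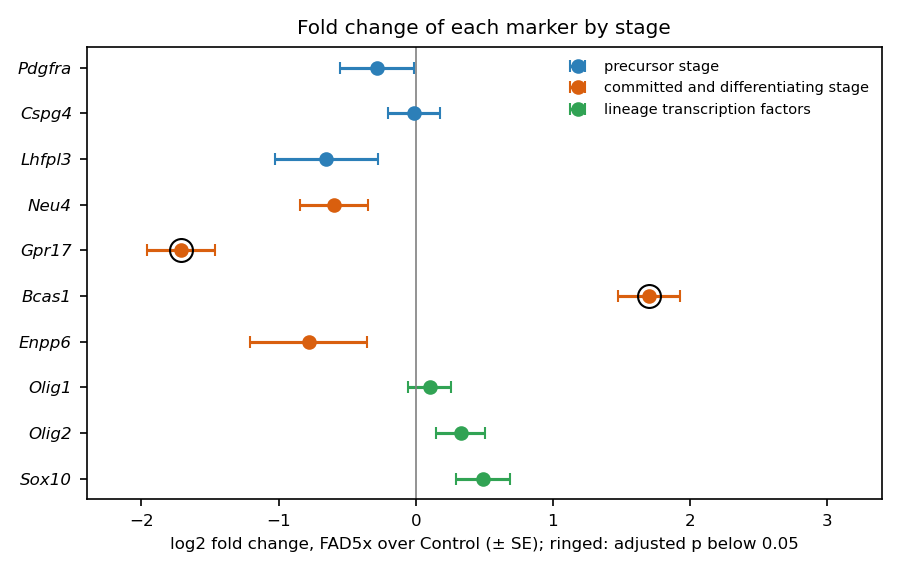
Log2 fold change of each marker, FAD5x over Control, on the horizontal axis with its SE (n = 3 per group), coloured by stage. Gpr17 at -1.71 and Bcas1 at 1.70 are ringed as past the threshold, and the other 8 lie between -0.78 and 0.49.

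Ratios of counts between markers of the same library do not depend on library scaling. The pairs were chosen after their values were seen and are given as a description. The count of Bcas1 was 5.47, 4.62 and 7.32 times that of Gpr17 in the FAD5x libraries, and 0.522, 0.499 and 0.559 times in the Control libraries. The mean log2 ratio was 2.51 ± 0.34 in FAD5x and -0.93 ± 0.082 in Control (SD, n = 3), so the order of the pair was opposite in the groups. Against Pdgfra, Gpr17 stood at 0.504, 0.508 and 0.555 times its count in FAD5x and at 1.32, 1.25 and 1.65 times in Control. The Gpr17 to Pdgfra ratio thus varied little within FAD5x although both genes differed between those libraries. The ratio of Sox10 to Olig2 overlapped between groups, at 2.22, 1.21 and 2.08 in FAD5x and 2.20, 1.44 and 1.29 in Control.

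**Figure D3:**
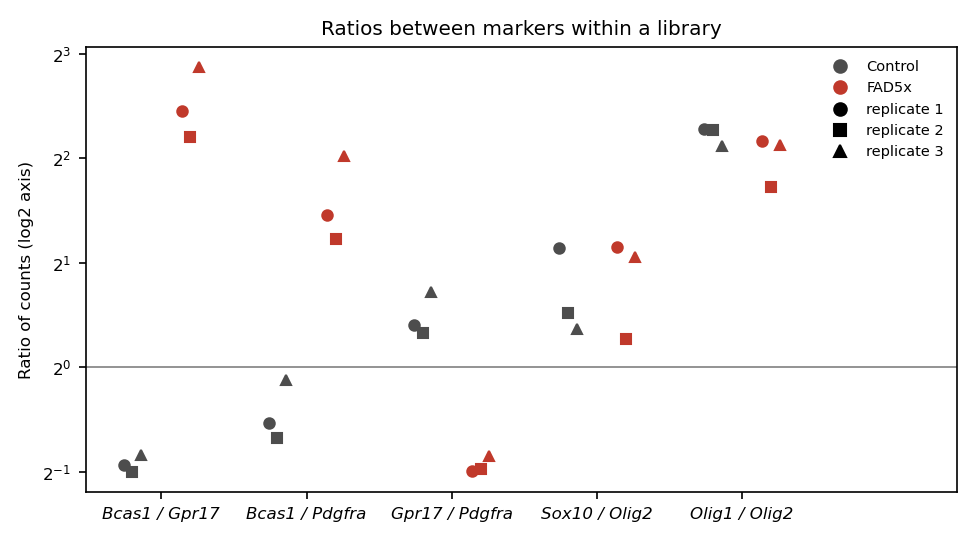
Ratio of raw counts between 2 markers in each library, on a log2 axis, for Control (grey) and FAD5x (red), with symbols for the replicate. Bcas1 over Gpr17 lies at 0.499 to 0.559 in Control and 4.62 to 7.32 in FAD5x, while Sox10 over Olig2 and Olig1 over Olig2 overlap between groups.

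Levels of different markers were compared per kilobase of exon, using exon lengths merged over all transcripts of a GENCODE annotation of an earlier genome build. In Control the order was Olig1 at 59.1, Gpr17 at 17.8, Sox10 at 14.3, Bcas1 at 12.9, Lhfpl3 at 11.6, Olig2 at 10.8, Pdgfra at 6.63, Neu4 at 2.71, Cspg4 at 2.01 and Enpp6 at 1.22 CPM per kilobase. Neighbours from Gpr17 down to Olig2, and Neu4 and Cspg4, overlapped between libraries. In FAD5x the order was Olig1 at 63.4, Bcas1 at 42.0, Sox10 at 20.1, Olig2 at 13.6, Lhfpl3 at 7.41, Pdgfra at 5.44, Gpr17 at 5.42, Cspg4 at 1.99, Neu4 at 1.79 and Enpp6 at 0.704 CPM per kilobase. There Olig1 and Bcas1, the run from Lhfpl3 to Gpr17, and Cspg4 and Neu4 overlapped. Gpr17 thus went from place 2 to place 7 and Bcas1 from place 4 to place 2, and Olig1 and Enpp6 kept the first and the last place.

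**Figure D4:**
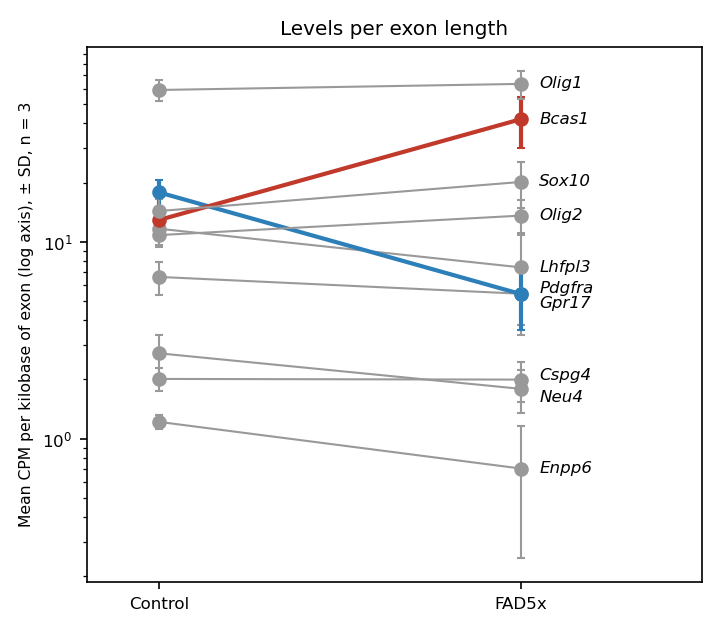
Mean level of each marker per kilobase of exon (CPM per kilobase, log axis) in Control and FAD5x, with SD over 3 libraries. Gpr17 (blue) goes from 17.8 to 5.42 and Bcas1 (red) from 12.9 to 42.0, and their lines cross.

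Over the 6 libraries, likeness to a marker was measured as the root mean square difference between centred log2 CPM profiles. The closest tested genes to Bcas1 were Qdpr, a pteridine reductase of oligodendrocytes (0.093), Ndrg1 (0.13) and Aspg (0.13). Qdpr measured 155, 106, 117 CPM (FAD5x) against 34.5, 41.8, 50.3 CPM (Control), the same order of libraries within each group as Bcas1. The closest to Gpr17 were Arhgap20os (0.19), Gja5, a gap junction gene of arterial endothelium (0.22), and Usp43 (0.25), which all had low levels of 0.366 to 7.47 CPM. Among the markers themselves, Cspg4 and Olig1 were each other's nearest (0.091), as were Pdgfra and Neu4 (0.23), and Lhfpl3 and Enpp6 (0.37).

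Upstream sequence was taken for markers with a RefSeq promoter window (build GRCm38.p6), which 6 of the 10 had: Pdgfra, Cspg4, Lhfpl3, Neu4, Enpp6 and Olig2. The windows cover the 250 bases before the annotated start. They were searched on both strands for the E-boxes CAGCTG and CAGATG, the kind of site that basic helix-loop-helix factors such as Olig2 bind, and for the SOX-type sites ACAAAG and ACAATG. No matches overlap one another in the windows below. Shown here are Pdgfra, which defines the precursor stage, and the mutually nearest pair Lhfpl3 and Enpp6, with motif matches in capitals, 5′ to 3′ on the plus strand, at chr5:75152001-75152250, chr5:22745804-22746053 and chr8:46986637-46986886.
Pdgfra: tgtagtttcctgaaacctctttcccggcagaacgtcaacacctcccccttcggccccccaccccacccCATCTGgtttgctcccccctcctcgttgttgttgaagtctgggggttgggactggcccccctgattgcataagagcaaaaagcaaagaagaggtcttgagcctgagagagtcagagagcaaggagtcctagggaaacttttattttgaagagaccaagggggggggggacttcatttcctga
Lhfpl3: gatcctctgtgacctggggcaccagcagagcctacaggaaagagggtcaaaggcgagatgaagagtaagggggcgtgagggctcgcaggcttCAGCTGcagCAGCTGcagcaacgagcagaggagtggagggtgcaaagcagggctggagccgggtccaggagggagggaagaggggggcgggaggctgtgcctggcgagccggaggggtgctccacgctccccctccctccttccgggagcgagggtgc
Enpp6: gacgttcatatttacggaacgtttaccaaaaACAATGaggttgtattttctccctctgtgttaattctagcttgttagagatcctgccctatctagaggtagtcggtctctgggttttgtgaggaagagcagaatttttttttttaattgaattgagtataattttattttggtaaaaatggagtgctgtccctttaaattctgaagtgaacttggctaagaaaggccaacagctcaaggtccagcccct
Pdgfra held CAGATG on the reverse strand, starting 182 bases before the start. Lhfpl3 held CAGCTG at 158 and 149 bases before the start, and Enpp6 held ACAATG at 219. Olig2 held ACAATG once, and Neu4 and Cspg4 held none of the 4 motifs. Of 32851 such windows 13.0% held CAGCTG, 14.4% CAGATG, 16.5% ACAAAG and 10.7% ACAATG, and 44.2% held at least 1.

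Other genes of the same stages were taken from lists. Of 17 other precursor genes 0 were called by edgeR or limma-voom, although DESeq2 called 3 lower. The unadjusted edgeR p was below 0.05 for 1 higher and 6 lower. Their median log2 fold change was -0.24, with 4 of 17 above 0. Over all 17074 tested genes DESeq2 called 722 lower, and 21.3% had an unadjusted edgeR p below 0.05 in either direction. Cspg5, a neural chondroitin sulfate proteoglycan, and Bcan, the brevican core protein, had the highest mean CPM over all 6 libraries. Cspg5 had 318 ± 42.5 CPM in FAD5x and 285 ± 40.5 in Control (SD, n = 3; log2 0.16, edgeR adjusted p = 0.618). Bcan had 278 ± 29.6 and 327 ± 47.6 CPM (log2 -0.24, edgeR adjusted p = 0.440). Ptprz1, a receptor-type phosphatase chosen after its values were seen, had the highest Control mean of the list, with 333 ± 39.6 CPM against 212 ± 91.6 in FAD5x (log2 -0.65 ± 0.28, edgeR adjusted p = 0.228). Leaving out FAD5x replicate 1, 2 or 3 gave 2, 2 and 1 calls in this list, in either direction, and leaving out any Control library gave 0. Over all genes, the fits without FAD5x replicate 1, 2 or 3 called 101, 604 and 283 higher and 103, 385 and 314 lower.

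Of 12 other genes of differentiating oligodendrocytes 2 fell by edgeR, with none higher even before adjustment (0 genes with unadjusted p below 0.05 and 0 called by DESeq2 or limma-voom), the share called being 16.7% against 3.15% of all tested genes. The list median was -0.59, with 1 of 12 above 0, and 7 of 12 had groups that did not overlap, against 27.4% of all tested genes. Kif19a, a kinesin, measured 2.93, 2.03, 2.66 CPM (FAD5x) against 6.44, 7.92, 8.05 CPM (Control) (log2 -1.55 ± 0.25, adjusted p = 0.0180). Cemip2, a transmembrane protein, measured 9.27, 11.97, 11.7 CPM (FAD5x) against 27.1, 22.3, 19.7 CPM (Control) (log2 -1.07 ± 0.18, adjusted p = 0.0207). In both genes every FAD5x library lay below every Control library. The count of 2 became 1, 2 or 4 when a FAD5x library was left out (replicates 1 to 3 in turn) and 0, 0 or 1 when a Control library was. In the same fits, genes called lower over all genes went from 237 to 103, 385 or 314 and to 56, 42 or 80. The 2 called genes thus fell, as Gpr17 did, while Bcas1 rose.

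Of 22 genes of myelinating oligodendrocytes 9 rose by edgeR, or 40.9% of the list against 1.76% of all tested genes, with none lower before adjustment (0 genes with unadjusted p below 0.05 and 0 called by DESeq2 or limma-voom), and had a median of 0.95 and 20 of 22 above 0. Those with the smallest p were Hapln2, Qdpr, Anln, Ppp1r14a, Ermn and Gpr37, with log2 fold changes of 2.85, 1.58, 1.65, 1.74, 1.57 and 1.69 (adjusted p = 0.00129, 0.00615, 0.0126, 0.0133, 0.0207 and 0.0211). The list median in single libraries, relative to the Control mean, measured 1.39, 0.31, 0.86 (FAD5x) against -0.24, -0.065, 0.32 (Control). FAD5x replicate 2 thus lay within the Control range for this median, although its Bcas1 level was 252% of the Control mean. The count of 9 became 6, 12 or 8 when a FAD5x library was left out (replicates 1 to 3 in turn) and 2, 2 or 5 when a Control library was. In the same fits, genes called higher over all genes went from 300 to 101, 604 or 283 and to 42, 39 or 72.

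Of 18 other regulators of oligodendrocyte differentiation 2 rose and 1 fell, with 1.76% of all tested genes higher and 1.39% lower. Nkx6-2, a homeobox factor of oligodendrocytes, measured 20.1, 19.5, 17.8 CPM (FAD5x) against 4.40, 5.001, 5.93 CPM (Control) (log2 1.91 ± 0.18, edgeR adjusted p = 0.00143), and this call held in each fit that left out 1 library, though not without replicate 1 of both groups (0.0732). Myrf, the factor that switches on myelin genes, rose by a log2 of 1.48 ± 0.27 (adjusted p = 0.0324), a call that ended without FAD5x replicate 1 or Control replicate 1 or 2. Hdac1, a histone deacetylase needed in differentiation, measured 15.5, 14.5, 16.6 CPM (FAD5x) against 28.0, 32.4, 29.0 CPM (Control) (log2 -0.94 ± 0.13, adjusted p = 0.0121). The Hdac1 call ended when any of the 3 Control libraries was left out. For Sox8, the close relative of Sox10, chosen after its value was seen, the log2 value was -0.040 ± 0.17 (edgeR adjusted p = 0.922).

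Of 19 growth factors and receptors that act on precursors 0 were called by edgeR, against 1 lower in DESeq2 and 0 in limma-voom, and 3 were lower before p-value adjustment at 0.05. Their median was -0.15. Over all 17074 tested genes DESeq2 called 722 lower, and 21.3% had an unadjusted edgeR p below 0.05 in either direction. Cntn1, a contactin that can engage Notch receptors, and Lingo1, an inhibitor of differentiation, had the highest mean CPM over all 6 libraries. Cntn1 had 300.3 ± 64.4 CPM in FAD5x and 366 ± 43.8 in Control (SD, n = 3; log2 -0.29, edgeR adjusted p = 0.431). Lingo1 had 323 ± 140 and 359 ± 70.4 CPM (log2 -0.15, edgeR adjusted p = 0.815). Pdgfa, the ligand of Pdgfra, had 36.2 ± 2.63 CPM in FAD5x and 38.8 ± 7.21 in Control (log2 -0.099 ± 0.16, adjusted p = 0.769), and was chosen after its values were seen.

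**Figure D5:**
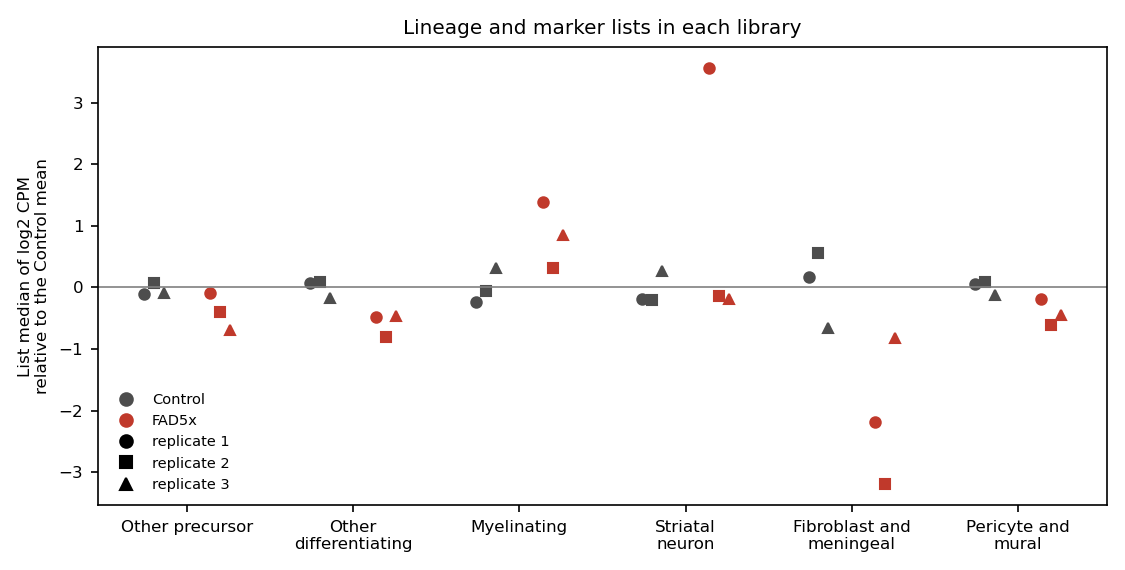
Median log2 CPM of each gene list relative to the Control mean (vertical axis) in each library, Control grey and FAD5x red, with symbols for the replicate. Myelinating genes lie at 0.31 to 1.39 in FAD5x, the other differentiating genes at -0.80 to -0.47, and striatal markers at 3.57 in FAD5x replicate 1 alone.

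Markers of other cell types were measured beside these results. Over all 17074 tested genes DESeq2 called 763 higher and 722 lower, and limma-voom 227 higher and 211 lower. An unadjusted edgeR p below 0.05 in either direction was found for 21.3% of them. The summed level of 10 pericyte and mural markers, cells that also carry Cspg4, was 167 to 221 CPM in FAD5x and 227 to 301.5 CPM in Control, with 0 called by edgeR, 3 lower in DESeq2, 0 in limma-voom and 4 lower before p-value adjustment at 0.05. The summed level of 9 fibroblast and meningeal markers, cells that also carry Pdgfra, was 25.6 to 120.0 CPM in FAD5x and 176 to 478 CPM in Control. By edgeR 2 of the 9 were lower, Col3a1 and Eln, or 22.2% against 1.39% of all tested genes. DESeq2 called 5 lower and limma-voom 2, and 6 were lower before p-value adjustment at 0.05. Their median was -1.60, with 0 of 9 above 0. The groups did not overlap for 5 of the 9, against 27.4% of all tested genes. None of the genes of these 2 lists was at 0 in any library, and their part in the Pdgfra and Cspg4 values was not tested. Of 7 microglia markers 1, C1qa, was called higher by edgeR, or 14.3% against 1.76% of all tested genes. DESeq2 called 2 higher and limma-voom 1, and 5 were higher before p-value adjustment at 0.05. All 7 had log2 fold changes above 0, with a median of 0.68. The microglia sum was 352 to 760.2 CPM in FAD5x and 242 to 364 CPM in Control. Of 5 striatal neuron markers 0 were called by edgeR, 0 in DESeq2 and 0 in limma-voom, and 1 was higher before p-value adjustment at 0.05, while their median stood 3.57 above the Control mean in FAD5x replicate 1. Of 6 endothelial, 6 astrocyte and 6 cortical neuron markers 0 were called by edgeR, DESeq2 or limma-voom, with medians of -0.19, -0.23 and -0.010. Before p-value adjustment at 0.05, 2 endothelial markers were lower, and 1 astrocyte and 1 neuron marker higher. The astrocyte marker Gfap, an intermediate filament gene chosen after its values were seen, measured 1508, 129, 914 CPM (FAD5x) against 193, 169, 119 CPM (Control), with a log2 value of 2.41 ± 0.81 (edgeR adjusted p = 0.168). FAD5x replicate 2 lay within the Control range for Gfap, and the other FAD5x libraries lay above it. The part of these cells in the oligodendrocyte values was not tested. The summed myelinating level was highest in FAD5x replicate 1, at 8953 CPM against 4896 and 6147 in the other FAD5x libraries and 3626 to 4972 in Control.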

How the data were processed

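The deposited table held raw counts per gene as the authors made them, with no normalisation, keyed by Ensembl identifier, in 1 column per library. Build GRCm39 and the tools STAR 2.7.11b, edgeR 3.38.4, cutadapt, limma and featureCounts are listed, without their roles, per the submitters' processing notes; strandedness and the treatment of reads that map to several places are not given in the sources used here. Columns were matched by library name and groups by the treatment label. Of 47729 lines 1 was dropped for a non-numeric entry. Symbols came from a table matched by identifier (47223 matched), and 1 of 154 list entries was not matched. Exon lengths and overlapping genes came from GENCODE on an earlier build, so no coordinates of genes are given.

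The test of the counts was that of edgeR 4.0.16, run under R 4.3.3 (filterByExpr, TMM scaling, robust quasi-likelihood F-test, two-sided, Benjamini-Hochberg over 17074 genes, threshold 0.05). The SE is the log2 fold change over the square root of F. Log2 CPM used a prior count of 2. Alternatives were limma 3.58.1 (voom), DESeq2 1.42.0, other scalings and filters, a replicate block, summed libraries and each library left out. The fitting steps were tested on simulated data. Libraries of a group differed with a chi-square of 18.2 to 56.8 per degree of freedom and were counted separately. Such a difference can also arise between preparations of the same animal, so it cannot show that FAD5x replicates 1 and 2 are separate animals. The n of each group therefore counts libraries. The members and lists were chosen with earlier results of these data known. The named genes were all 10 members, up to 6 called genes per list by p, or, in lists without a call, the 2 most abundant, and the 3 nearest profiles of each called member.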

Additional observations from a re-analysis of the deposited data

How the results depend on the processing

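Bcas1 kept a log2 fold change of 1.32 to 1.86 and Gpr17 of -2.12 to -1.50 over 16 other settings, with the call lost in 4 settings for Bcas1 and in 3 for Gpr17. Leaving out single libraries gave 0 to 1 marker called higher, 0 to 1 lower, 39 to 604 genes higher and 42 to 385 lower over all genes. In the lists it gave 0 to 2 other precursor genes, 0 to 4 other differentiating genes and 2 to 12 myelinating genes. Of the 17074 tested genes DESeq2 called 763 higher and 722 lower, with 3 other precursor and 6 other differentiating genes. With no filter on low counts the numbers were 574, 489, 3 and 5. With the replicate number as a block, 0 markers were called higher and 0 lower (adjusted p = 0.0775 for Bcas1 and 0.0801 for Gpr17), 36 genes were higher and 36 lower, and 0 other differentiating and 2 myelinating genes were called. The block used the replicate numbers of the sample titles, and no label used here says that same-numbered libraries belong together. Deviations of same-numbered libraries correlated at -0.043, -0.093 and -0.31, and those of differently numbered libraries at -0.21 to 0.30. These values cannot show whether the libraries were paired in some other way. With FAD5x replicates 1 and 2 summed, Bcas1 (log2 1.67, edgeR adjusted p = 0.00217) and Gpr17 (log2 -1.82, edgeR adjusted p = 0.0119) stayed called. That setting called 440 genes higher and 275 lower, with 1 other precursor, 3 other differentiating and 11 myelinating genes. The fit without replicate 1 of both groups, chosen after the data were seen, gave 0 markers higher, 15 genes higher and 19 lower, 0 other differentiating and 0 myelinating genes. There Olig1 was at -0.10, and with single libraries left out it ranged from -0.025 (without FAD5x replicate 1) to 0.21. Cspg4 was at 0.011 with upper-quartile scaling and ranged from -0.21 to 0.11 with single libraries left out, above 0 without FAD5x replicate 2 or 3 or Control replicate 2. The cause of these changes was not tested; settings without a library also have fewer samples.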

Other observations

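Genes of dividing cells were measured because precursors divide. Of 6 listed genes (Mki67, Top2a, Ccnb1, Cdk1, Birc5 and Pclaf) 5 were tested and 0 were called by edgeR, DESeq2 or limma-voom, with 0 below an unadjusted edgeR p of 0.05. Their median log2 fold change was -0.98, with 0 of 5 above 0. The groups did not overlap for 2 of the 5, against 27.4% of all tested genes. Birc5, the untested gene, had means of 0.60 CPM in FAD5x and 0.39 in Control, scaled by library total alone. Mki67 measured 3.42, 0.29, 0.78 CPM (FAD5x) against 2.26, 2.75, 2.35 CPM (Control). The summed level of the 6 genes measured 7.08, 1.31, 4.95 CPM (FAD5x) against 7.36, 7.35, 8.09 CPM (Control), in the order of replicates. FAD5x replicate 2 was the lowest, 2 listed genes had a count of 0 in some library, and all 3 FAD5x sums lay below the Control sums.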
